A study of Homo sapiens with 9 samples.

Results

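Genes of histone variants made outside DNA replication were followed in libraries of HAP1 cells prepared from 1 to 1000 sorted cells. The 10 members, chosen by name as variants whose mRNAs carry a poly(A) tail, were H2AFZ and H2AFV (H2A.Z), H2AFX (H2A.X), H2AFY and H2AFY2 (macroH2A), H2AFJ (H2A.J), H3F3A and H3F3B (H3.3), H1F0 (H1.0) and H1FX (H1X), out of 26485 gene models in all. HAP1 is a near-haploid, adherent human cell line derived from a chronic myeloid leukaemia line, and all libraries carried the genotype WT, with no treatment named in the labels. Total RNA of FACS-sorted cells was isolated with NAxtra magnetic beads, treated with DNase and made into SMART-Seq Stranded libraries, with 3 libraries of 1 cell and 2 libraries each of 10, 100 and 1000 cells. The labels call the replicates biological but do not mention separate cultures, so p-values measure only the spread between these libraries. The comparison asks how measurements from a single cell relate to those from more cells.

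Most histones are supplied during S phase from clustered genes whose mRNAs end in a stem-loop in place of a poly(A) tail. The replacement variants come from single genes with polyadenylated mRNA, usually with introns, and are placed into chromatin throughout the cell cycle by dedicated chaperones. H2A.Z marks promoters and enhancers, H3.3 marks active genes as well as telomeric repeats, H2A.X is phosphorylated around DNA breaks, macroH2A carries a large extra domain and is enriched in silent chromatin, and H1.0 and H1X are linker histones.

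The coding sequences show which members counting by gene can tell apart. H3F3A and H3F3B encode an identical protein of 136 residues, yet 88 of their 411 coding bases differ. H2AFZ and H2AFV differ in 76 of 387 coding bases and in 3 of 128 residues. The first 60 coding bases of both pairs are given below from GENCODE 29 (GRCh38), with the bases that differ within a pair in capitals, 13 in the H3.3 pair and 12 in the H2A.Z pair. The H3F3A stretch lies at chr1:226064352-226064411 on the plus strand and that of H3F3B at chr17:75779115-75779174 on the minus strand. Those of H2AFZ (chr4:99949684-99950170) and H2AFV (chr7:44843298-44847971), both on the minus strand, are joined across an intron.
H3F3A: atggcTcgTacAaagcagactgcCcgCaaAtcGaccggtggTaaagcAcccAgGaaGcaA
H3F3B: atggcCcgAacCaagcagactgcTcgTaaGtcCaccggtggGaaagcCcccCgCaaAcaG
H2AFZ: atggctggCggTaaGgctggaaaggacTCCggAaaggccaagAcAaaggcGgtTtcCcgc
H2AFV: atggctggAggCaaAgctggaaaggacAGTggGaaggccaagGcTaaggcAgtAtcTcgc

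The protein pairs were less alike elsewhere in the group. H2AFY and H2AFY2 shared 67.7% of 372 aligned residues, H2AFX and H2AFJ differed in 11 of 129, and H1F0 and H1FX shared 30.7% of 192. The histone mRNA stem-loop, searched by its general form on the sense strand of annotated coding transcripts, was found in 1 of the 10 members. That member was H2AFX, a gene known to yield both a stem-loop mRNA and a polyadenylated one. The motif was present in 71 of 19702 protein-coding genes (0.36%) and in 31 of 66 replication-dependent histone genes (47.0%), and its absence says only that these letters are not in the annotated transcripts. The H2AFX element starts 50 bases after the stop codon and ends 1044 bases before the end of the transcript. The stretch shown, with flanking bases on each side, lies at chr11:119094893-119094918 on the minus strand. It is set beside that of the replication-dependent gene HIST1H2AC, with the stem-loop in capitals. The HIST1H2AC stretch lies at chr6:26124664-26124689 on the plus strand, and its element ends 1114 bases before the end of its annotated transcript.
H2AFX: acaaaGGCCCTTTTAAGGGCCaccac
HIST1H2AC: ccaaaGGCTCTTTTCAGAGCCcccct

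Each library held 42842970 to 61645865 counts assigned to genes, and 13968 to 18634 gene models had at least 1 count. Levels are given as CPM, counts scaled to a TMM-normalised library of 1000000. Since PCR amplification ran with no molecular identifiers, limits drawn from counts cover counting error only. The single cells differed far more from each other than the larger inputs did, with a chi-square per degree of freedom of 234 to 290 between single cells, 30.7 and 31.5 between the libraries of 10 and of 100 cells, and 6.01 between those of 1000 cells. The pairs with single cell Rep 3 gave the highest of these, 286 and 290, and the fold changes of the members between single cells and the 6 larger libraries are given with and without it. HAP1 has no accepted marker gene. Of 8 blood lineage markers, PTPRC stayed at or below 0.019 CPM, and MPO, GATA1 and HBG1 were at 0 in all 9 libraries. ITGAM was at 2.8 and 1.63 CPM in single cells Rep 1 and Rep 2, and CD33 at 1.38 CPM in 10 cells Rep 1. The summed level of the 8 was 0 to 2.8 CPM. The fibroblast markers DCN, LUM and FAP were at 0 in all 9 libraries, whereas PDGFRA reached 39.4 to 156 CPM and COL1A1 3.76 to 16.8 CPM. THY1 was at 10.6 CPM in single cell Rep 2, and the 8 summed to 53.7 to 171 CPM. The plasma cell marker TNFRSF17 was at 0, and the 7 of that list in the files summed to 42.6 to 61.8 CPM, nearly all of it SDC1. The part of such cells in any result was not tested.

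Of the 10 members, 8 had usable counts. H1F0 (chr22:37805107-37807436, plus strand, 1 exon) was at 0 counts in all 9 libraries, which allows a level of up to 0.00656 CPM over the 457578506 counts. This limit covers counting error only, and no value here accounts for the 0, which need not mean that the gene was silent. None of its 2295 windows of 50 bases occurs in another annotated gene, and its neighbours on the same strand were counted, TRIOBP at 2105 to 3527 and GCAT at 431 to 1751 counts. H3F3A (chr1:226062707-226072002, plus strand) was at 0 in 8 libraries and had 3 counts in 1000 cells Rep 1. However, 1042 of its 1062 exon bases (98.1%) also belong, on the same strand, to the gene model H3F3AP4. Reads that fall in both models were credited to neither, so the level of H3F3A was not measured by these counts. H3F3AP4 has no base on chromosome 1 outside H3F3A, and its counts of 633 to 2189 therefore come from its other stretch at chr2:174719800-174720841. In the H3F3A mRNA, 362 of 1259 windows of 50 bases (28.8%) recur in H3F3AP4. Whether any of the H3F3AP4 counts are reads of H3F3A was not tested.

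Among the 8 measured genes, levels per kilobase of the gene model in the 6 libraries of 10, 100 and 1000 cells were highest for H2AFZ, at 306 ± 46.3 CPM per kilobase (SD, n = 6). H2AFX followed at 138 ± 7.28 CPM per kilobase, and the lowest value of H2AFZ lay above the highest of H2AFX. H3F3B stood at 99.3 ± 8.02, H1FX at 84.3 ± 7.92 and H2AFY at 84.0 ± 4.19 CPM per kilobase. The ranges of H3F3B and H1FX overlapped, as did those of H1FX and H2AFY, so their order is not resolved. H2AFV had 37.9 ± 2.25, H2AFY2 6.40 ± 1.20 and H2AFJ 2.72 ± 0.40 CPM per kilobase, each apart from its neighbours. At 1000 cells H2AFZ ranked 125 and H2AFJ 10229 among the 26485 models by level per kilobase. ACTB, the β-actin gene, reached 2603 ± 141 CPM per kilobase in the same 6 libraries. The order rests on the length used, most of all for 2 genes. The H2AFV model spans 4704 exon bases against 752 in its annotated main mRNA, and that of H2AFJ 3667 against 644. The counts of the whole model were also divided by the length of that mRNA. This put H2AFV at 237 ± 14.1 and H2AFZ at 296 ± 44.8 CPM per kilobase, with overlapping ranges. It put H2AFJ at 15.5 ± 2.28 CPM, above H2AFY2 at 7.04 ± 1.32 CPM. Reads outside the mRNA stay in these counts, so the values of H2AFV and H2AFJ may be too high. The place of these 2 genes in the order is therefore not resolved.

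**Figure D1:**
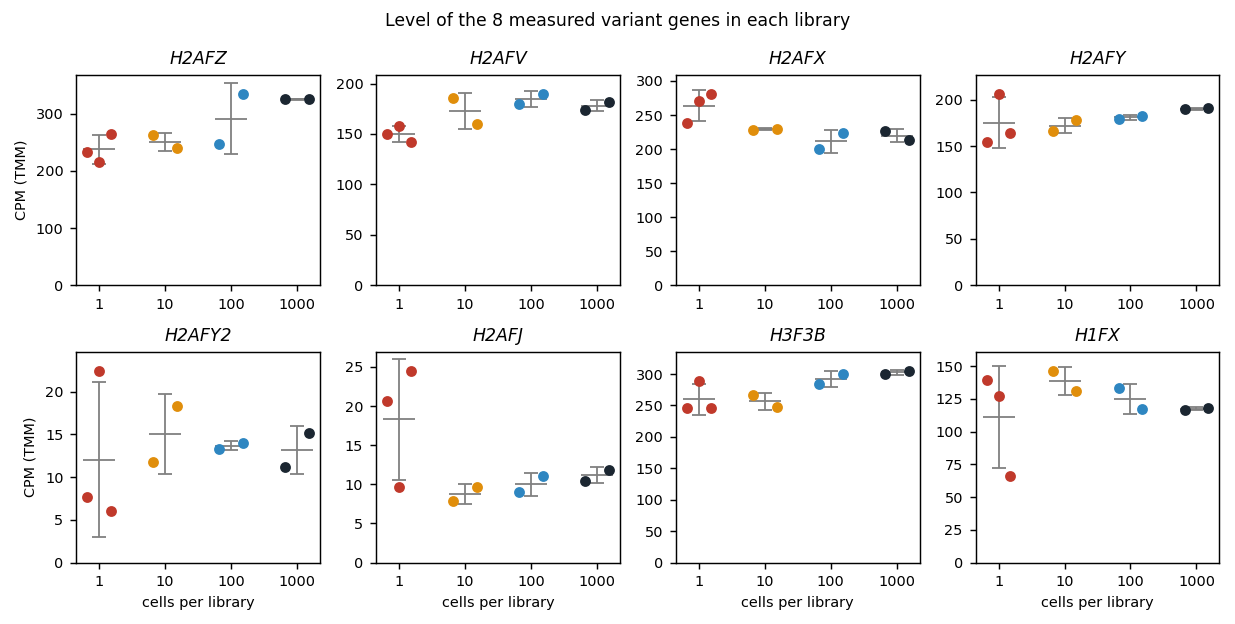
CPM (TMM-normalised) of the 8 measured variant genes in each library, plotted by the number of cells; points are libraries, the grey bar is the mean and its whiskers 1 SD (n = 3 for single cells, 2 elsewhere), and each panel has its own axis from 0. H2AFX was above, and H2AFV below, all 6 libraries of more cells in each of the 3 single cells, and H1FX was at 66.3 CPM in single cell Rep 3.

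None of the 8 tested members passed the test between the 3 single cells and the 6 libraries of more cells, by edgeR's quasi-likelihood test with Benjamini-Hochberg adjustment at 0.05 over 15603 genes. The fit gives each gene 1 spread shared by both groups. Yet the median SD of log2 CPM over genes of 100 CPM or more was 0.228 among single cells. It was 0.0661, 0.071 and 0.0261 at 10, 100 and 1000 cells. The p-values of comparisons with single cells therefore do not measure the spread between single cells alone and may be too small. Over all genes 1041 passed (6.67%), 347 of them higher and 694 lower in single cells. This count moved to 2406 to 3188 genes (15.0% to 19.8%) without 1 of the single cells. It was 669 to 739 without either 10-cell library or 100 cells Rep 1. It was 0 without 100 cells Rep 2 or either library of 1000 cells. At an unadjusted p under 0.05 stood 4 of the 8 members (H2AFX, H2AFV, H2AFJ and H2AFZ) and 24.5% of all genes. DESeq2's Wald test called 3 members, H2AFX and H2AFJ as higher and H2AFV as lower in single cells, among 2595 genes (16.6%). By position, 1 member (H2AFX) had every single cell above all 6 libraries, as did 4.94% of all genes, and 1 (H2AFV) had every single cell below them, as did 10.1% of all genes. The median log2 fold change of the 8 was -0.16, with 2 above 0 and 6 below, against 0.01 over all genes.

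**Figure D2:**
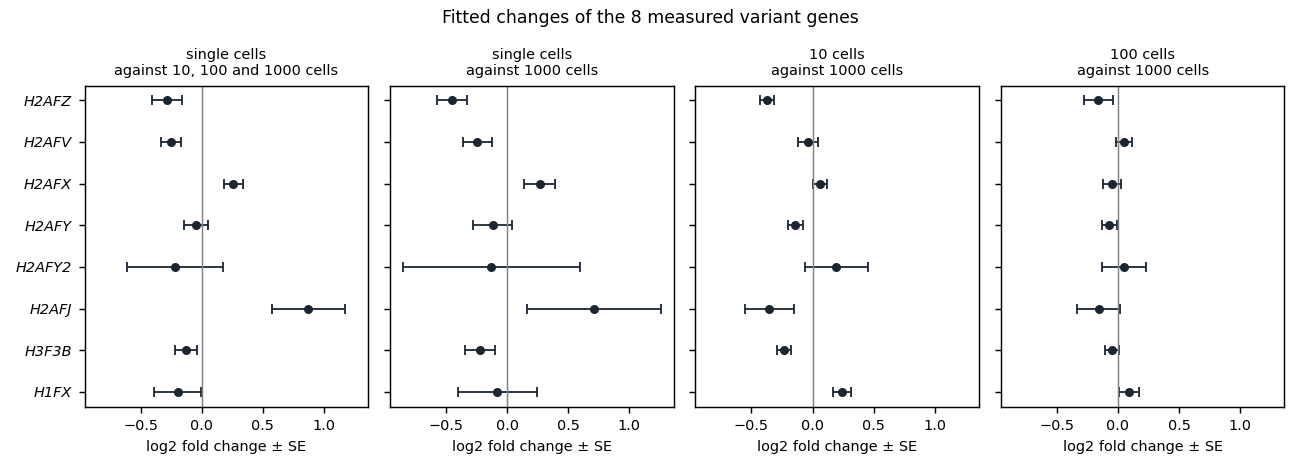
Fitted log2 fold change of each measured member with its standard error (edgeR) in 4 comparisons, the first group over the second; the 3 right-hand comparisons share the libraries of 1000 cells. H2AFJ had the highest value among the single cells (0.87) with a wide error, and H2AFZ was below 0 in each panel.

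The H2A.Z genes both had fitted values below 0 in single cells, without passing the adjusted test. H2AFZ (chr4:99948087-99950355, minus strand, 5 exons) was at 232, 216 and 265 CPM among the 3 single cells, 262 and 240 CPM in 10 cells, 248 and 335 CPM in 100 cells and 325 and 326 CPM in 1000 cells. The values were 216 to 265 CPM among the single cells, the 10-cell libraries and 100 cells Rep 1, and 325 to 335 CPM in the other 3, so the single cells lay below both libraries of 1000 cells but overlapped the 6 libraries as a group. In the fit against the 6 libraries the log2 fold change was -0.28 ± 0.12 (SE, adjusted p = 0.186, edgeR) and -0.37 without single cell Rep 3 (adjusted p = 0.0988, edgeR), and against 1000 cells alone it was -0.45 ± 0.13 (adjusted p = 0.294, edgeR).

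H2AFV (chr7:44826889-44848126, minus strand) encodes H2A.Z.2. It was at 150, 158 and 143 CPM among the single cells, 186 and 160 CPM in 10 cells, 179 and 190 CPM in 100 cells and 174 and 182 CPM in 1000 cells. All 3 single cells were lower than the lowest of the other libraries, 10 cells Rep 2. Its log2 fold change was -0.25 ± 0.08 (adjusted p = 0.0775, edgeR), -0.21 without single cell Rep 3 (adjusted p = 0.0965) and -0.29 without Rep 2 (adjusted p = 0.0335, both edgeR, the latter beside 19.8% of all genes called). Of the 703 windows of 50 bases in its mRNA, 14.8% recur in the pseudogene H2AFVP1, and 6.45% of those of H2AFZ recur in H2AFZP3, so both may be undercounted.

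H2AFZ took 88.6% ± 1.53 of the H2A.Z counts per kilobase in single cells (SD, n = 3), 87.8% ± 0.463 in 10 cells, 88.5% ± 1.74 in 100 cells and 90.1% ± 0.262 in 1000 cells (n = 2 each). The single cells, at 87.2% to 90.2%, covered nearly the range of the other libraries, 87.3% to 90.3%. With the same whole-model counts divided by mRNA length the share was 54.8%, 52.8%, 54.5% and 58.4%, so the balance within the pair depends on the length used. Reads outside the H2AFV mRNA stay in its counts, so this share of H2AFZ may be too low.

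H2AFX (chr11:119093875-119095467, minus strand, a single exon), the member with the stem-loop shown above, stood higher in every single cell. Its level was 238, 271 and 281 CPM among the single cells, 228 and 230 CPM in 10 cells, 199.8 and 223 CPM in 100 cells and 226 and 213 CPM in 1000 cells. The lowest single cell lay above the highest of the 6 other libraries, by a small margin in Rep 1. The log2 fold change was 0.26 ± 0.08 (adjusted p = 0.066, edgeR), 0.21 without single cell Rep 3 (adjusted p = 0.0912) and 0.32 without Rep 1 (adjusted p = 0.0156, both edgeR, the latter beside 17.8% of all genes called). Against 1000 cells alone it was 0.27 ± 0.12 (adjusted p = 0.73, edgeR).

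The 2 genes whose levels followed H2AFX most closely over the 9 libraries, among 9875 genes averaging 10 CPM or more, were both replication-dependent histone genes, in whose annotated coding transcripts the letters of the stem-loop search were not found. HIST1H2BK had a Pearson r of 0.98 (rho 0.85) and HIST1H4K one of 0.98 (rho 0.92), as descriptions over libraries that share their groups. HIST1H2BK was at 419, 539 and 578 CPM among the single cells and 331 to 400 CPM in the 6 others, and HIST1H4K at 32.3, 47.7 and 51.4 CPM against 25.4 to 33.1 CPM. Both genes were picked for their r to H2AFX over these libraries, so a like order among the single cells follows from the choice. Single cell Rep 1 was the lowest of the 3 for all 3 genes. For HIST1H4K it fell within the range of the other libraries. Over the 6 larger libraries alone r was 0.89 and 0.92. Of the 53 replication-dependent histone genes tested, 7 were higher and 1 lower in single cells (adjusted p under 0.05, edgeR), the latter HIST1H2AD, named after its values were seen, with a median log2 fold change of 0.28. Their 8 calls stand beside 6.67% of all genes. There were 28 without single cell Rep 1 (beside 17.8% of all genes) and 11 without Rep 2 (19.8%). DESeq2 called 17 (16.6%), and the fit without a filter 5 (3.31%). There were 3 to 4 without a 10-cell library or 100 cells Rep 1 (4.33% to 4.78%). Without 100 cells Rep 2 or a library of 1000 cells there were 0, as over all genes. These genes form families with near-identical coding parts, so single members are uncertain. Their summed level was 10650, 15320 and 15280 CPM among the single cells and 10360 to 12330 CPM in the others.

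**Figure D3:**
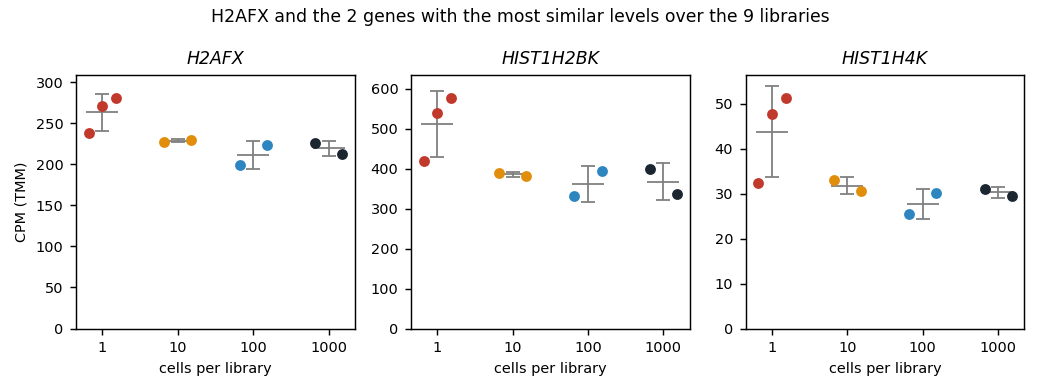
CPM (TMM-normalised) of H2AFX and of HIST1H2BK and HIST1H4K, the 2 genes with the highest Pearson r to it over the 9 libraries, by number of cells; points are libraries, grey bars the mean and whiskers 1 SD, with axes from 0. In each gene single cell Rep 1 is the lowest single cell, and Rep 2 and Rep 3 lie above all 6 libraries of more cells.

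The macroH2A genes differed in how evenly they were measured. H2AFY (chr5:135334381-135399887, minus strand), which encodes macroH2A1, was at 155, 206 and 164 CPM among the single cells, 166 and 178 CPM in 10 cells, 179 and 183 CPM in 100 cells and 189 and 191 CPM in 1000 cells. Single cells Rep 1 and Rep 3 were below the 6 libraries and Rep 2 above them. In the fit the change was -0.05 ± 0.10 (adjusted p = 0.809, edgeR), -0.0037 without Rep 3, and changed sign to 0.03 without Rep 1.

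H2AFY2 (chr10:70052601-70112284, plus strand) encodes macroH2A2. It was at 7.65, 22.4 and 5.98 CPM among the single cells, 11.7 and 18.3 CPM in 10 cells, 13.3 and 14.0 CPM in 100 cells and 11.2 and 15.2 CPM in 1000 cells. Each single cell lay outside the range of the 6 libraries, Rep 2 above and the other two below, with a 3.73-fold difference between the highest and the lowest cell. The counts behind these values were 396, 1144 and 312. Its log2 fold change was -0.22 ± 0.39 (adjusted p = 0.789, edgeR). It was 0.11 without Rep 3 and 0.02 without Rep 1, and without Rep 2 it was -1.03 (adjusted p = 0.0269, edgeR, beside 19.8% of all genes called), so its direction rests on which single cell is included. In the pair, H2AFY took 95.3%, 90.3% and 96.5% of the counts per kilobase in the single cells and 90.7% to 94.5% in the others, and the mean share in single cells was 94.1% ± 3.31 (SD, n = 3). H2AFY and H2AFY2 were both highest in single cell Rep 2, and over the 9 libraries their Pearson r was 0.79 (a description).

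H2AFJ (chr12:14774336-14778002, plus strand), an H2A variant found in mammals, had the largest fitted difference of the 8. Its level was 20.7, 9.70 and 24.5 CPM among the single cells, 7.82 and 9.61 CPM in 10 cells, 8.99 and 11.1 CPM in 100 cells and 10.5 and 11.9 CPM in 1000 cells. Single cells Rep 1 and Rep 3 were above all other libraries, while Rep 2 was within their range. The log2 fold change was 0.87 ± 0.30 (adjusted p = 0.0931, edgeR), 0.61 without Rep 3 (adjusted p = 0.168) and 1.18 without Rep 2 (adjusted p = 0.00747, both edgeR, the latter beside 19.8% of all genes called). Its closest genes over the 9 libraries were CSRNP3 and FOPNL (Pearson r 0.99 and 0.98). CSRNP3 was at 20.8 and 24.2 CPM in Rep 1 and Rep 3, and at 6.66 CPM in Rep 2, a likeness that follows from its choice by r.

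H3F3B (chr17:75776434-75779935, minus strand) was the measured source of H3.3. Its level was 245, 289 and 245 CPM among the single cells, 266 and 248 CPM in 10 cells, 284 and 301 CPM in 100 cells and 300.3 and 305 CPM in 1000 cells. Single cells Rep 1 and Rep 3 were just below the lowest of the other libraries and Rep 2 was among them. Its change was -0.13 ± 0.09 (adjusted p = 0.408, edgeR) and -0.09 without Rep 3 (adjusted p = 0.555, edgeR). In H3F3B, 8.28% of the windows of 50 bases recur in H3F3C, the intronless gene of H3.5, which differs from it in 11 of 408 coding bases. H3F3C was at 2.41, 7.94 and 4.71 CPM among the single cells and 1.71 to 3.31 CPM elsewhere (log2 fold change 1.15 ± 0.52, adjusted p = 0.203, edgeR). Its fold change was 1.20 without Rep 3 (adjusted p = 0.124) and 1.48 without Rep 1 (adjusted p = 0.0392, both edgeR, the latter beside 17.8% of all genes called). No share of H3F3A in the H3.3 pair can be given, for the reason above. The model H3F3AP4 was at 20.0, 14.5 and 41.9 CPM among the single cells and 13.2 to 22.5 CPM in the others (log2 fold change 0.54 ± 0.31, adjusted p = 0.313, edgeR). Without Rep 3 it was -0.02 (adjusted p = 0.965, edgeR), so its direction rests on that cell.

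H1FX (chr3:129314771-129316277, minus strand, a single exon) encodes the linker histone H1X. It was at 139, 127 and 66.3 CPM among the single cells, 146 and 131 CPM in 10 cells, 133 and 117 CPM in 100 cells and 117 and 118 CPM in 1000 cells. Single cell Rep 3 alone was outside the range of the 6 libraries, 0.93 below their mean on the log2 scale, whereas Rep 1 and Rep 2 were within it. The log2 fold change of -0.19 ± 0.19 (adjusted p = 0.592, edgeR) became 0.07 without Rep 3. FANCE and ZSWIM7 were its closest genes over the 9 libraries (Pearson r 0.99 and 0.98). Being picked by that r, they were lowest in Rep 3 too, at 7.57 and 8.60 CPM. Over the 6 larger libraries, r was 0.95 and 0.85.

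The other variant genes were few in these cells. CENPA, the centromeric H3 variant that peaks in G2, was at 35.8, 19.7 and 80.2 CPM among the single cells and 21.1 to 34.2 CPM elsewhere (log2 fold change 0.64 ± 0.33, adjusted p = 0.268, edgeR). Without Rep 3 the value was -0.07 (adjusted p = 0.874) and without Rep 2 it was 1.00 (adjusted p = 0.0255, both edgeR, the latter beside 19.8% of all genes called). Rep 1 and Rep 3 were above, and Rep 2 below, the range of the 6 libraries. The 20 genes of the G2 and mitosis list summed to 6319, 6621 and 9196 CPM among the single cells and 7344 to 8437 CPM in the others, so Rep 3 was high in both, and the part of the cell cycle in the variant levels was not tested. The 20 S phase genes summed to 3995, 4898 and 4099 CPM among the single cells and 4171 to 4677 CPM in the others. Across members and CENPA, the strongest opposite course was that of H2AFY2 (Pearson r -0.90 over 9 libraries). Of the 14 other variants in the files, 4 had no count in any library (H2AFB1, H2AFB3, HILS1 and HIST1H2AA), 3 were tested (CENPA, H3F3C and the testis gene HIST1H1T) and none was called by edgeR or DESeq2 in the full set of libraries (1 at an unadjusted p under 0.05 in edgeR, with H3F3C and HIST1H1T called by edgeR without single cell Rep 1 and CENPA without Rep 2), and the remaining germline variants stayed at or below 0.369 CPM.

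**Figure D4:**
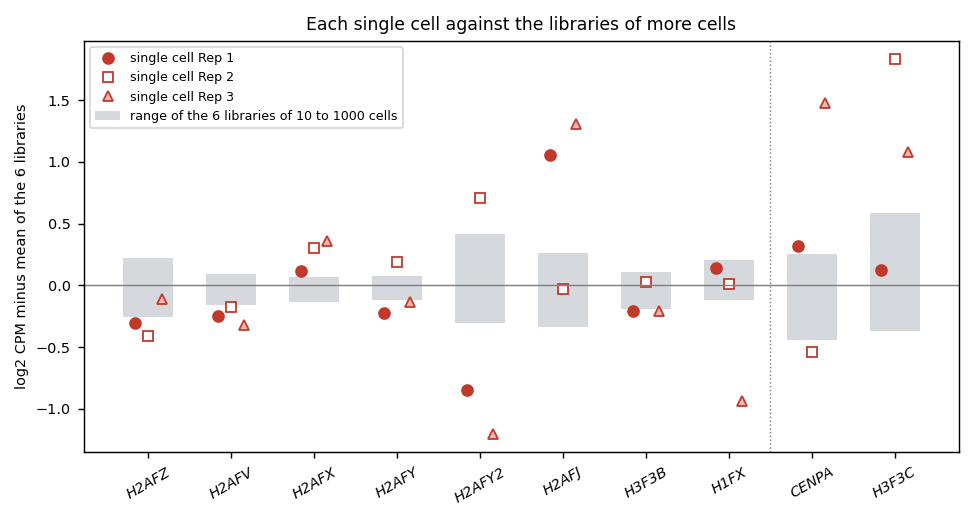
Difference in log2 CPM of each single cell from the mean of the 6 libraries of 10, 100 and 1000 cells, for the 8 measured members and, right of the dotted line, CENPA and H3F3C; grey boxes give the range of those 6 libraries. Single cell Rep 3 is 0.93 below the mean for H1FX and 1.48 above it for CENPA, and Rep 2 is opposite to Rep 1 and Rep 3 for H2AFY and H2AFY2.

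The spread between single cells separated the members. On the log2 CPM scale the SD among the 3 single cells was 0.074 for H2AFV, 0.13 for H2AFX, 0.14 for H3F3B, 0.15 for H2AFZ and 0.22 for H2AFY, all under the median of 0.228 over the 2340 genes of 100 CPM or more. H1FX, of the same level class, had 0.585, which fell to 0.091 without Rep 3. H2AFY2 and H2AFJ, between 10 and 100 CPM, had SDs of 1.01 and 0.71, above the median of 0.479 over 7535 genes of that class. Without Rep 2 they were 0.25 and 0.17. At 1000 cells the SD was 0.004 to 0.063 for the members of 100 CPM or more, and 0.13 and 0.31 for H2AFJ and H2AFY2. With 3 cells an SD is itself loosely known, and these values describe the cells sequenced. In single cells Rep 1, Rep 2 and Rep 3, 7, 5 and 7 of the 8 members lay outside the range of the 6 libraries, as did 72.0%, 71.3% and 73.0% of 16184 genes.

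**Figure D5:**
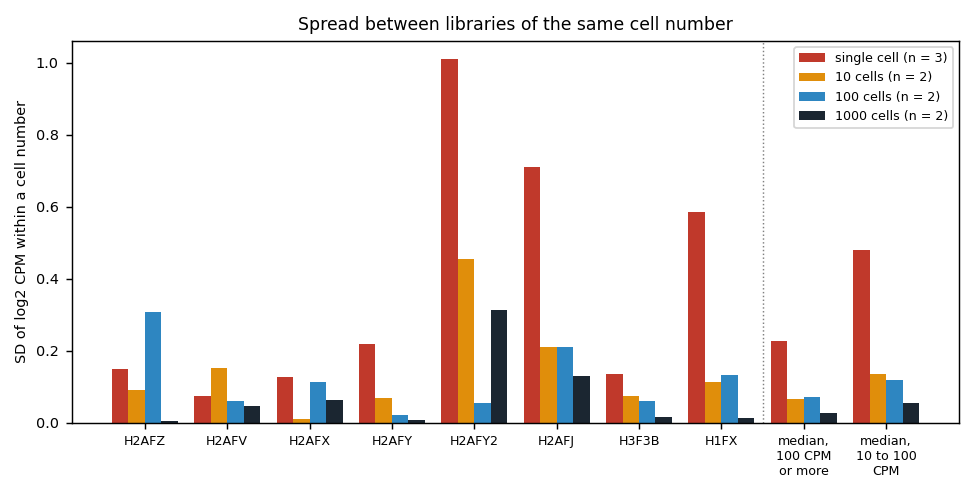
SD of log2 CPM between libraries of the same cell number for the 8 measured members and, right of the dotted line, the median over genes of 2 level classes (n = 3 single cells and 2 libraries at each other number). H2AFY2, H2AFJ and H1FX had the widest spread between single cells, and the other 5 were under the median of the class of 100 CPM or more.

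Among larger inputs no gene passed the adjusted test. For 10 against 1000 cells 0% of 15449 genes and 0 of 8 members were called by edgeR, with 1735 genes and 3 members at an unadjusted p under 0.05, while DESeq2 called 194 genes and 2 members, H2AFZ and H3F3B. H2AFZ had a log2 fold change of -0.37 ± 0.06 in 10 cells (unadjusted p = 0.000409, adjusted p = 0.218, edgeR) and H3F3B one of -0.23 ± 0.06 (unadjusted p = 0.00451, adjusted p = 0.333, edgeR). H1FX had one of 0.24 ± 0.07 (unadjusted p = 0.0135, adjusted p = 0.359, edgeR). By position, 2 of the 8 members had both 10-cell libraries above both of 1000 cells and 4 had them below, these 3 genes included. With 2 libraries on each side this separation carries little weight, and its share over all genes was not computed. In bulk libraries a difference in level cannot be told apart from one in the share of cells that express the gene. ACTB had a log2 fold change of 0.16 ± 0.03 (adjusted p = 0.231, edgeR). For 100 against 1000 cells 0% of 15597 genes and 0 of 8 members were called, with 314 genes and no member at an unadjusted p under 0.05. There DESeq2 called 1 gene and no member. For single cells against 1000 cells 0% of 15394 genes and 0 of 8 members were called, with 1218 genes and 1 member (H2AFZ) at an unadjusted p under 0.05. There DESeq2 called 49 genes and no member. These 3 comparisons share the libraries of 1000 cells. Without 10 cells Rep 1 or Rep 2, 5 members were called for 10 against 1000 cells, H2AFZ, H3F3B and H1FX both times. Without 100 cells Rep 2, 3 members (H2AFZ, H2AFX and H1FX) were called for 100 against 1000 cells. These were fits where the spread came from the 1000-cell pair alone and 25.7% to 30.4% of all genes were called. The fit without 100 cells Rep 1 had the same form, yet called 14 genes (0.0867%) and 0 members.

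Genes of the proteins that deposit, remove or bind the variants were followed in the single cells against the 6 libraries. Of 10 H3.3 chaperone genes, 2 were lower in single cells and none higher, with a list median of -0.02. They were NASP, a carrier of H3 and H4 (-0.40 ± 0.06, adjusted p = 0.0131, edgeR), and ATRX, the remodeller that acts with DAXX at repeats (-0.40 ± 0.08, adjusted p = 0.0247, edgeR). Of 28 genes of the H2A.Z exchange complexes, 1 was higher and 2 lower, with a median of 0.07. SRCAP, the motor of the complex that inserts H2A.Z, was higher (0.41 ± 0.10, adjusted p = 0.0357, edgeR). ANP32E, the chaperone that removes H2A.Z, was lower (-0.42 ± 0.10, adjusted p = 0.0352), as was the TIP60 complex subunit gene MRGBP (-0.57 ± 0.15, adjusted p = 0.0411, both edgeR). In place of these 3 calls there were 8 with DESeq2. Without single cell Rep 1, Rep 2 and Rep 3 there were 5, 7 and 4. There was 1 without 100 cells Rep 1 and 0 without 10 cells Rep 1. Without single cell Rep 3, SRCAP (0.29, adjusted p = 0.0584) and ANP32E (-0.38, adjusted p = 0.0501, both edgeR) were not called. MRGBP still was (-0.53, adjusted p = 0.0277, edgeR).

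Of 24 general histone chaperone genes, 4 were lower and none higher, with a median of -0.12. NAP1L1, a chaperone of H2A and H2B, was lower by -0.35 ± 0.07 (adjusted p = 0.0214, edgeR), ANP32B by -0.34, SET by -0.23 and ANP32A by -0.28, with adjusted p from 0.0307 to 0.0416. This count of 4 became 10 without single cell Rep 3, 9 without Rep 2, 2 without a filter, and 1 to 2 without a 10-cell library or 100 cells Rep 1. Of 17 macroH2A and linker histone partners only the lamin gene LMNB1 was lower (-0.25 ± 0.07, adjusted p = 0.0491, edgeR) and none was higher, with a median of -0.21. The call of LMNB1 was lost with RLE size factors, without a filter, with the 10 CPM filter, with thinned counts, with a common spread, with the replicate block and without any 1 library other than single cell Rep 2 (adjusted p = 0.0533 to 0.104 in edgeR without a library). The list had 6 calls with DESeq2 and 3 to 5 without a single cell. Of 19 tested genes of H2A.X phosphorylation and its readers, none was called by edgeR or DESeq2 and 3 had an unadjusted p under 0.05 in edgeR, whereas 2 were called without single cell Rep 1 and 3 without Rep 2. Of 20 S phase genes none was called by edgeR (3 at an unadjusted p under 0.05, 2 called by DESeq2, MCM3 and CCNE2), with 7 called without single cell Rep 2 and 2 without Rep 1. Of 20 genes of G2 and mitosis 2 were lower, the mitotic kinase gene AURKA (-0.72 ± 0.16, adjusted p = 0.0274) and the cyclin gene CCNB1 (-0.51 ± 0.13, adjusted p = 0.0372, both edgeR). The G2 and mitosis count of 2 became 7 without single cell Rep 3, 4 without Rep 1 and 1 without 10 cells Rep 1 or 100 cells Rep 1. The shares called in the main fit are to be read against the 6.67% of all genes. With DESeq2 the share over all genes was 16.6%. It was 17.8%, 19.8% and 15.0% without single cell Rep 1, Rep 2 and Rep 3, and 3.31% without a filter. Without a 10-cell library or 100 cells Rep 1 it was 4.33% to 4.78%. Counts from those fits are to be read against these shares. Leaving out 100 cells Rep 2 or either library of 1000 cells left no gene of the whole table called, and so no gene of these lists. The fit with a common spread of 4 groups also called none of them.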

How the data were processed

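Per the file headers and labels, the authors used Trim Galore 0.6.7 for trimming, HISAT2 2.2.1 for alignment of the 9 HAP1 libraries to hg38, and featureCounts (Subread 2.0.6, strand setting 2) for counting. The annotation release was not given in the sources used here. The deposited files hold raw counts of reads for 26485 gene models, and reads in several places or in more than 1 model were not counted. Levels, fits and shares were made from them with edgeR 4.0.16 in R 4.3.3 (TMM, filterByExpr, quasi-likelihood test), with a prior count of 2 for log2 CPM. Sequences came from GENCODE 29. Members and lists were chosen with earlier results of these data known. Named were the members, other variants, ACTB, called genes of each list (at most 6), and 2 genes of highest Pearson r per member. HIST1H2AC was added by hand as an example of the stem-loop. Alternatives were RLE size factors, DESeq2 1.42.0, other filters, a common spread over the 4 cell numbers, a replicate block, thinning, lengths and leaving out each library. Fits were tested on simulated counts with 1 spread per gene shared by both groups. That test does not cover the larger spread between single cells.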

Additional observations from a re-analysis of the deposited data

How the results depend on the processing

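The count of members called for single cells against 10, 100 and 1000 cells was 0 in 6 of 7 alternative settings and 3 with DESeq2, and 0 to 3 when 1 library was left out. For single cells against 1000 cells it stayed at 0 in all settings and with each library left out. For 10 against 1000 cells it was 2 with DESeq2, 1 without a filter, and 0 to 5 with 1 library left out, and for 100 against 1000 cells 0 to 3. Deviations of equal replicate numbers correlated at -0.0235 to 0.0245 between cell numbers, so no shared effect was visible. This cannot show whether libraries of equal number were prepared together. Replicate number 3 exists only among the single cells, so the block takes single cell Rep 3 out of their contrasts, and most values lie near those without that cell (H1FX 0.071 and 0.070, but H2AFY2 -0.016 and 0.11). The list counts with the block were 10 for general chaperones, 7 for G2 and mitosis, 5 for replication-dependent histones and 3 for macroH2A and linker histone partners. They stand beside 13.3% of all genes called in that fit. With the replicate block 1 member, H2AFZ, was called for 10 against 1000 cells, the log2 fold change of H1FX in single cells reversed to 0.071, and the genes called were 2077, 5, 55 and 20 in place of 1041, 0, 0 and 0 in the 4 comparisons. Reversed too were H2AFY without single cell replicate 1 (0.030), H2AFY2 without replicate 1 (0.023) or replicate 3 (0.11) and H1FX without replicate 3 (0.070). With 1 library left out the log2 fold changes ranged from -0.18 to 0.03 for H2AFY, -1.03 to 0.11 for H2AFY2 and -0.40 to 0.07 for H1FX.

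Over the first comparison's settings, 1041 genes became 2595 with DESeq2, 682 without a filter, 576 with at least 10 CPM in 2 libraries, 0 with a common spread of 4 groups and 0 to 3188 with 1 library left out. For single cells against 1000 cells DESeq2 called 49. For 10 against 1000 cells DESeq2 called 194, no filter 123, the 10 CPM filter 9 and fits without a library 13 to 4721. For 100 against 1000 cells these were 1 with DESeq2, 31 without a filter and 3 to 4951 without a library. The cause was not tested.

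Without 1 single cell, the SD of log2 CPM was 0.0728 to 0.208 for H2AFZ, 0.052 to 0.104 for H2AFV, 0.0374 to 0.169 for H2AFX, 0.0612 to 0.293 for H2AFY, 0.25 to 1.34 for H2AFY2, 0.174 to 0.943 for H2AFJ, 0.000166 to 0.166 for H3F3B and 0.0912 to 0.758 for H1FX. All 24 values under another prior count, RLE or thinning moved by less than the error of an SD. The share of H2AFZ was 61.2%, 59.3%, 60.9% and 64.7% (1, 10, 100 and 1000 cells) without division by length. With whole-model counts per kilobase of mRNA, an alternative chosen after seeing the data, it was 54.8%, 52.8%, 54.5% and 58.4%. That of H2AFY was 89.1%, 90.4% and 91.1% at 10, 100 and 1000 cells. Of 144 list counts under alternatives, 66 differed from the main count by over 1.5 times.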

Other observations

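The closest genes of the remaining members by Pearson r over the 9 libraries are given as descriptions, since the libraries share groups and 9875 genes were ranked. H2AFZ was followed by RPL38 and SRP14 (both 0.95), H2AFV by U2SURP and RIC1 (both 0.96), H2AFY by ZNF280D (0.97) and the receptor gene MET (0.96), H2AFY2 by MYO18A and ZNF283 (both 0.96), and H3F3B by NUPL1 (0.97) and CENPH (0.96). Over the 6 libraries of 10, 100 and 1000 cells the weakest of these was that of H2AFY2 with ZNF283, at 0.61. RPL38, a gene of the large ribosomal subunit, was at 212, 234 and 272 CPM among the single cells. It was at 255 and 257 CPM in 10 cells, 232 and 361 CPM in 100 cells and 345 and 349 CPM in 1000 cells. Thus 100 cells Rep 1 and Rep 2 fell apart in it as in H2AFZ, a likeness that follows from its choice by r. Among the members over the 9 libraries, H2AFY2 ran opposite to H2AFJ (Pearson r -0.78), and H2AFV to H2AFX (-0.77) and H2AFJ (-0.74). H2AFY ran with H2AFY2 (0.79) and H3F3B (0.77), and H2AFV with H3F3B (0.73).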
